A study of Mus musculus with 9 samples.

Results

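Diet-induced obese mouse salivary glands were compared with glands of mice on a control diet, across all genes measured. The members are the 3 libraries of obese glands (DIO 1 to DIO 3) and the 3 of control glands (control 1 to control 3), 6 of the 9 libraries of the series, chosen by their label alone. The other 3 came from DIO mice after sleeve gastrectomy (SG) and entered only the estimate of the spread. All mice were female C57BL/6 mice aged 34 weeks at collection, and each library was made from polyA RNA of the submandibular and sublingual glands pooled. Control mice ate standard chow. DIO mice ate a diet that drew 60% of its calories from fat, from an age of 4 weeks and for 20 weeks. Which diet the DIO mice ate between that time and collection is not stated in the labels, nor is the hour of collection. Separate animals behind the libraries are not stated either. P-values here set the difference between groups against the spread of libraries within groups, and some of that spread may be technical.

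The submandibular gland of the mouse is mostly serous acini, which secrete watery saliva proteins, and granular convoluted ducts, which store growth factors and kallikrein proteases. The sublingual gland is mostly mucous. The parotid gland, lymph nodes and fat lie against both glands and can be cut out with them. In bulk RNA, fewer cells of a type and less RNA per cell cannot be told apart.

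The 6 libraries held 36349885 to 43495564 counts, and 3 counts, the level used as the floor of detection, equalled 0.0690 to 0.0825 CPM (counts relative to TMM-scaled library sizes). Markers of the labelled glands were present in all 6. Klk1, a ductal kallikrein, ranged from 20491 to 30219 CPM, the submandibular and sublingual protein Smgc from 925 to 4828 CPM and the sublingual mucin Muc19 from 892 to 2198 CPM. Control 2 stood apart, with a mean rank correlation to the other 5 libraries of 0.975, where those 5 had 0.983 to 0.987.

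Among genes of other tissues, the red blood cell list summed to 61.9, 69.9 and 85.8 CPM in control and 150.3, 108.8 and 91.4 CPM in DIO. The skeletal muscle list summed to at most 6.83 CPM, in control 3. Genes of several other tissues and cell states, by contrast, had their highest sums in control 2. The B cell and lymph node list summed to 299.6 CPM there, 20.5 in control 1, 7.29 in control 3 and 34.3 to 80.9 in DIO, so control 3 was the lowest of all. A set of 8 genes with the parotid pattern (Amy1, Dnase1, Prpmp5, Smr3a, Chia1, Cst10, Prb1 and Bpifa2, grouped after their values were seen) took 4.67% of the counts of control 2, 0.880% of control 1, 0.298% of control 3 and 0.161% to 0.316% of the DIO libraries. Adipocyte genes summed to 475.5 CPM in control 2 and 226.1 to 262.8 CPM in the other 5, with the fat cell hormone Adipoq at 9.75 CPM there and at most 1.7 CPM elsewhere. Cell cycle genes summed to 472.4 CPM in control 2 and 118.7 to 150.3 CPM in the other 5. All 28 genes of a list of liver-expressed plasma protein and metabolic genes, also grouped after their values were seen, had their highest level in control 2. They summed to 2203 CPM there, 61.3 in control 1, 48.7 in control 3 and 49.0 to 52.7 in DIO. Alb, the serum albumin gene, was at 834.7 CPM in control 2, 10.7 and 0.433 CPM in control 1 and control 3 and 0.131 to 1.36 CPM in DIO. The transferrin gene Trf, whose product salivary glands also make, was at 467 CPM in control 2 and 20.8 to 25.9 CPM in the other 5 libraries. The fibrinogen genes Fgb and Fgg, the apolipoprotein gene Apoa2 and Mug1 reached 50.9, 37.2, 24.6 and 22.1 CPM in control 2. Hpx, which encodes hemopexin, was at 141.0 CPM in control 2 and 0 to 0.186 CPM elsewhere. Skeletal muscle was near absent, with Myh4 at 0 counts in all 6 libraries. Results are therefore given with all libraries and without control 2.

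**Figure D1:**
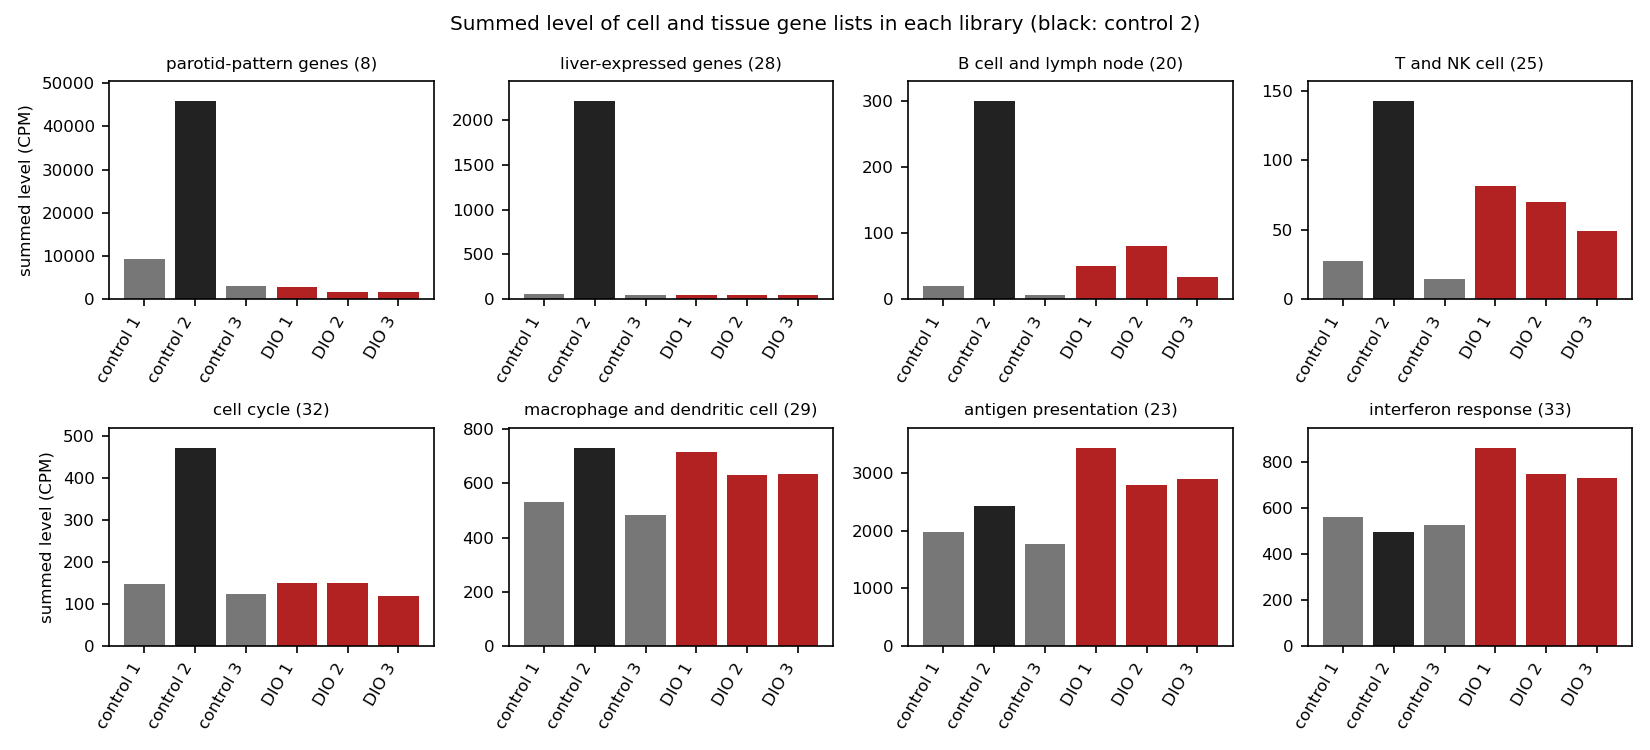
Summed level in CPM (linear axis from 0) of 8 gene lists in each of the 6 libraries, with control libraries in grey, control 2 in black and DIO in red; the number of genes stands in brackets. Control 2 holds the highest bar for the parotid, liver, B cell, T cell, cell cycle and macrophage lists, whereas antigen presentation and interferon genes are highest in DIO 1.

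The comparison was first made over all genes. Of 14912 genes tested with all 9 libraries in the fit, 14 (0.0939%) passed an adjusted p of 0.05 in edgeR's quasi-likelihood test, 8 higher in DIO (0.0536%) and 6 lower (0.0402%). Without control 2, 140 of 15092 genes (0.928%) passed, 104 higher (0.689%) and 36 lower (0.239%), and all 14 were among them. DESeq2 called 194 genes with all libraries (1.3%), 78 higher (0.523%) and 116 lower (0.778%), and 492 (3.26%) without control 2, which included each of the 140. With library totals in place of TMM, edgeR's test called 22 genes, 17 higher and 5 lower, and 283 without control 2, 267 higher and 16 lower. The number with all libraries rested on single libraries. It was 3 without control 1, 2 without control 3, 0 without DIO 1 (1181 at an unadjusted p under 0.05), 4 without DIO 2, 3 without DIO 3, 17 without SG 1, 10 without SG 2 and 4 without SG 3. These fits used edgeR. The 140 became 112 without control 1 as well, 3 without control 3, 6 without DIO 1, 9 without DIO 2, 233 without DIO 3, 345 without SG 1, 230 without SG 2 and 87 without SG 3.

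Control 2 changed the spread more than the centre. The common biological coefficient of variation, the spread between libraries that edgeR estimates, was 0.206 with it and 0.152 without it, while the median log2 fold change over all genes was 0.01 and -9.8e-05. The estimated change of 2463 genes, 16.5% of the 14902 tested both ways, had the opposite sign without control 2. In 2433 genes (16.3%) the groups did not overlap, with all of DIO above all of control in 1333 (8.94%) and below in 1100 (7.38%). By the sign of the estimate alone, 51.7% of genes were higher and 48.3% lower with all libraries, and 50% each way without control 2.

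**Figure D2:**
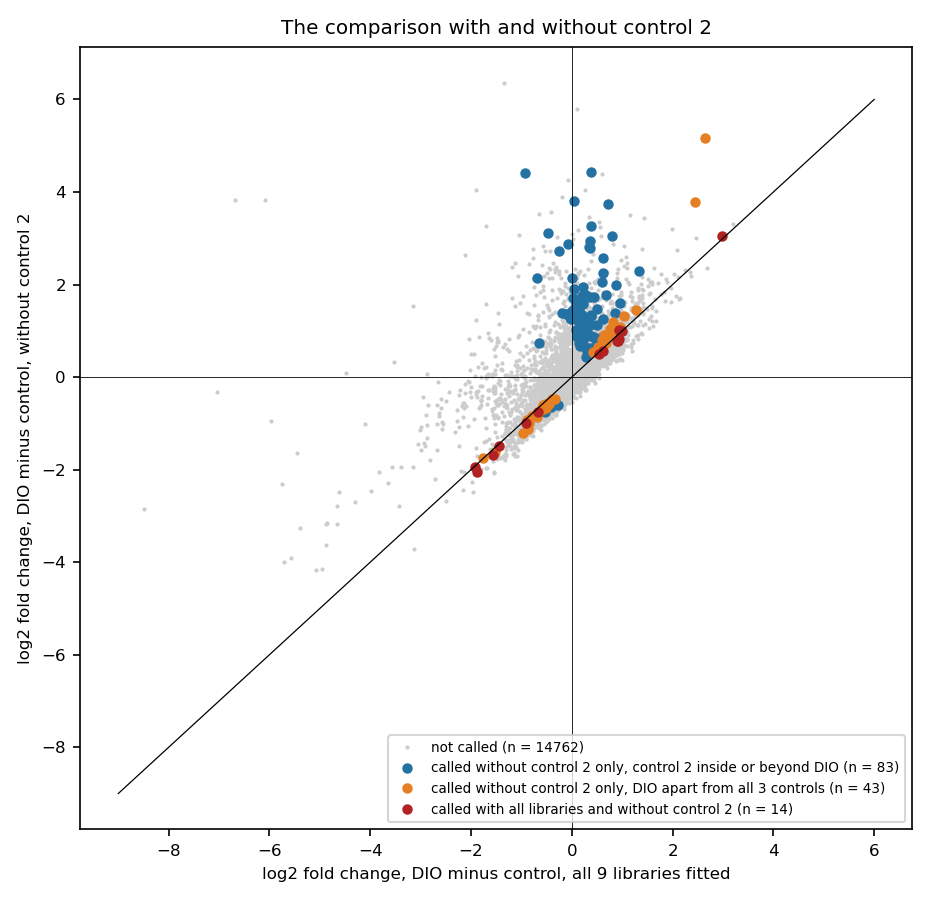
Log2 fold change of DIO minus control for each gene tested both ways, with all libraries (horizontal axis) and without control 2 (vertical axis), and a line where both are equal. The 14 genes called both ways (red) and the 43 called only without control 2 whose DIO libraries lie apart from all 3 controls (orange) lie near the line, while most of the 83 others (blue) lie far above it.

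Among the genes that rose with all libraries, those outside the clock and interferon groups encode a chaperone, an esterase, a secreted peptide, a scaffold and a transcription factor. Zbtb16 (NCBI gene 235320), a zinc finger transcription factor, stood at 2.66, 3.92 and 3.82 CPM in control 1, 2 and 3 and 28.4, 23.5 and 30.6 CPM in DIO. It had the largest log2 fold change of all 14 genes (log2 fold change 2.98, SE 0.45, adjusted p = 0.0437). Hspa8 (15481), the constitutive cytosolic chaperone HSC70, stood at 515, 591 and 476 CPM in control and 949, 914 and 1175 CPM in DIO (log2 fold change 0.94, SE 0.13, adjusted p = 0.0333). The lowest DIO library exceeded the highest control in both. Ces1d (104158), a carboxylesterase that acts on lipid esters, stood at 141, 105 and 130.1 CPM in control and 238, 232 and 235 CPM in DIO (log2 fold change 0.91, SE 0.12, adjusted p = 0.0336), and its 3 DIO values lay closer together than its controls. Esp8 (100126778), an exocrine-gland-secreted peptide, stood at 32.7, 29.2 and 35.3 CPM in control and 54.5, 63.1 and 67.2 CPM in DIO (log2 fold change 0.93, SE 0.14, adjusted p = 0.0437). Sash1 (70097), a signalling scaffold, stood at 36.7, 34 and 33.7 CPM in control and 53.1, 51.5 and 47.2 CPM in DIO (log2 fold change 0.54, SE 0.08, adjusted p = 0.0449). Control 2 was the lowest control for Ces1d and Esp8 and the highest for Hspa8 and Zbtb16, so it did not shift these genes to 1 side.

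Genes that fell with all libraries included 2 kinases and a Golgi protein. Dgki (320127), the iota form of diacylglycerol kinase, which turns diacylglycerol into phosphatidic acid, stood at 25.4, 20 and 30.2 CPM in control and 6.68, 6.47 and 7.4 CPM in DIO (log2 fold change -1.88, SE 0.18, adjusted p = 0.00398). It was the only one of 8 tested diacylglycerol kinases to pass, and 5 of the 8 were lower (list median -0.10). Nek10 (674895), a kinase of the NIMA family, stood at 3.7, 4.89 and 5.87 CPM in control and 1.17, 1.13 and 1.5 CPM in DIO (log2 fold change -1.93, SE 0.28, adjusted p = 0.0437). Golph3l (229593), a Golgi protein that binds a phosphoinositide, stood at 57.3, 48.9 and 52.4 CPM in control and 31.3, 34 and 34.3 CPM in DIO (log2 fold change -0.67, SE 0.1, adjusted p = 0.0437). It was also the only member of the list of 36 Golgi and secretory vesicle genes to pass, where 18 were higher and 18 lower (median -0.01). For these 3 genes every DIO library was below the lowest control, and control 2 was no outlier among the controls.

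The clock and interferon genes complete the set. The clock output gene Dbp stood at 180.4, 143 and 183 CPM in control and 39, 69.3 and 63.9 CPM in DIO, the clock repressor Nr1d1 at 128, 120.2 and 124 CPM in control and 38.4, 53.2 and 44.6 CPM in DIO and the repressor Bhlhe41 at 35.9, 30.3 and 34.3 CPM in control and 17.5, 18.3 and 17.8 CPM in DIO. Igtp (16145), an interferon-induced GTPase, stood at 11.6, 10.8 and 8.76 CPM in control and 24.2, 19.5 and 18 CPM in DIO (log2 fold change 0.99, SE 0.15, adjusted p = 0.0437). Without control 2 the log2 fold changes of these 4 genes were -1.69, -1.5, -0.99 and 1.0, beside -1.56, -1.45, -0.9 and 0.99 with it. How often a gene passed when 1 of the 9 libraries was left out separates the set. Bhlhe41 and Dgki passed in 8 of 9 such fits (highest adjusted p = 0.0705 in edgeR's test), Nr1d1 in 5, Dbp, Golph3l, Nek10 and Zbtb16 in 3, Ces1d, Esp8, Hspa8 and Igtp in 2 and Sash1 in 1.

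**Figure D3:**
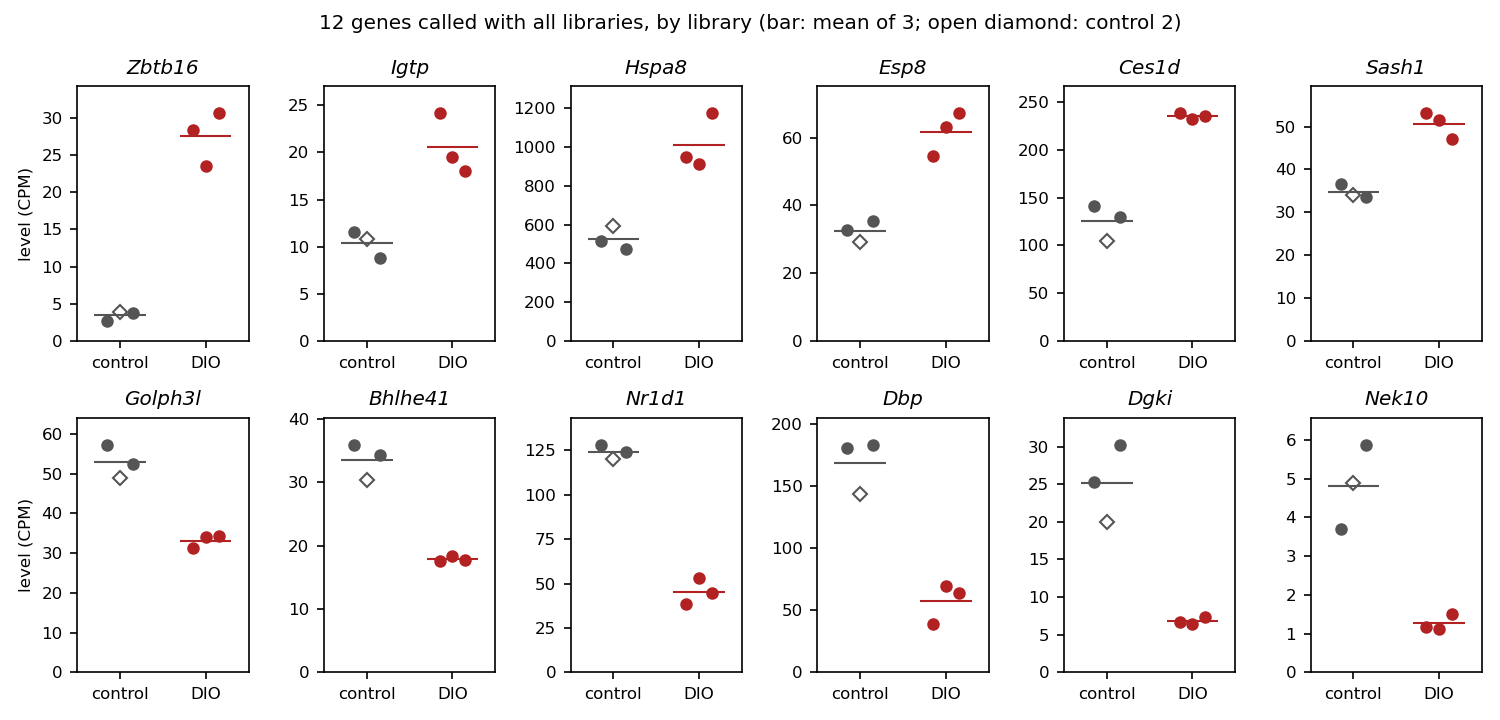
Level in CPM (linear axis from 0, a scale for each gene) of 12 genes called with all libraries; each point is a library, grey for control and red for DIO, the open diamond is control 2, and the bars are means of 3. In each gene the 3 DIO points lie apart from the 3 control points, with control 2 among or next to the other controls.

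Leaving out control 2 added 126 calls, and the level of control 2 itself sorts them. In 43 of the 126 the DIO libraries were apart from all 3 controls, control 2 included, although control 2 took no part in calling them. Together with the 14 they make 57 genes, 25 higher and 32 lower. Over all genes, DIO was apart from control 1 and control 3 in 4833 (32%) and from all 3 controls in 2433 (16.3%). Many genes thus kept the separation whether called or not, and the 57 are no added support for the calls. In the other 83 of the 140, control 2 lay among or beyond the DIO libraries. DESeq2 with all libraries called 49 of the 57.

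Of the 36 genes lower without control 2, 32 also had control 2 above every DIO library. These were enzymes, receptors and signalling genes of many kinds. Of the 36, 0 were in the 7 lists of immune genes, but these lists held only 162 of the 15092 genes tested. So few or none would be found there in any set of this size. Mob3b, a member of the MOB family of kinase activators, stood at 53.1, 30.3 and 50.9 CPM in control and 21.9, 24.4 and 26.8 CPM in DIO (log2 fold change -1.12, SE 0.11, adjusted p = 0.00109 without control 2) and passed in 8 of 8 fits that left out a further library, as did Bhlhe41 and Dgki. Control 2 lay between the other controls and DIO for this gene. Dclk2, a doublecortin-like kinase, stood at 3.46, 3.9 and 3.75 CPM in control and 1.21, 1.23 and 0.799 CPM in DIO (log2 fold change -1.76, SE 0.36, adjusted p = 0.0416). Dnah11, a dynein heavy chain of motile cilia, stood at 37.6, 30 and 43.5 CPM in control and 19.5, 21 and 21.3 CPM in DIO (log2 fold change -1.0, SE 0.14, adjusted p = 0.0117). All 3 were lower in each DIO library than in each control.

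Erbb4, a receptor for neuregulins and other ligands of the EGF family, stood at 10.6, 6.94 and 7.94 CPM in control and 4.9, 4.98 and 5.78 CPM in DIO (log2 fold change -0.85, SE 0.16, adjusted p = 0.0329 without control 2). It was the only one of 13 tested EGF family ligands and receptors to pass, of which 6 were higher and 7 lower in that fit (median -0.01). Cth, the cystathionine lyase that makes cysteine, stood at 9.76, 9.53 and 10.3 CPM in control and 4.44, 6.08 and 5.42 CPM in DIO (log2 fold change -0.94, SE 0.2, adjusted p = 0.0471). The proprotein convertase gene Pcsk4 stood at 6.89, 4.14 and 7.12 CPM in control and 2.55, 2.65 and 4.05 CPM in DIO and Kndc1 at 18.8, 17.8 and 22.7 CPM in control and 12.5, 11.1 and 13.1 CPM in DIO (log2 fold changes -1.21 and -0.79 without control 2, adjusted p = 0.0293 and 0.0233). Rgcc, a regulator of the cell cycle and the only one of 20 endothelial genes to pass, stood at 84.4, 66.8 and 104 CPM in control and 41.9, 56.6 and 60.1 CPM in DIO (log2 fold change -0.86, SE 0.18, adjusted p = 0.0468). Of that endothelial list 4 were higher and 16 lower with all libraries (median -0.33), and 6 and 14 without control 2 (median -0.13).

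Prlr, the prolactin receptor, Cd44, the hyaluronan receptor, and Prkar2b, a regulatory subunit of protein kinase A, were also among the 32, chosen here after their values were seen. Prlr stood at 43.4, 36.2 and 41.9 CPM in control and 32.7, 30.6 and 29.7 CPM in DIO, Cd44 at 112, 109.6 and 129 CPM in control and 78.1, 77.7 and 89.6 CPM in DIO and Prkar2b at 52.5, 47.6 and 58.5 CPM in control and 35, 37 and 42.6 CPM in DIO. Their log2 fold changes without control 2 were -0.48, -0.58 and -0.56, so small shifts passed where the libraries lay close together. Adhfe1, a mitochondrial oxidoreductase, stood at 23.4, 22.9 and 22.8 CPM in control and 13.3, 15.6 and 17.6 CPM in DIO (log2 fold change -0.6, SE 0.12, adjusted p = 0.0468 without control 2) and was the only one of 21 aldehyde and alcohol dehydrogenases to pass (9 higher, 12 lower, median -0.10).

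The other 4 of the 36 were not separated from control 2. Cbr2, a carbonyl reductase, stood at 51.2, 32.6 and 53 CPM in control and 26.6, 31.7 and 36 CPM in DIO and the phosphatase subunit gene Pdp2 at 28.5, 18.4 and 29.7 CPM in control and 17.9, 21 and 20 CPM in DIO, with control 2 inside the range of DIO, and 2 genes with clone names had control 2 below DIO.

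The 25 genes higher in DIO than in all 3 controls included 9 in the immune lists and 16 outside them. The lists do not hold every immune gene, so the 9 are no full count of immune genes. Of the 162 members of those lists tested without control 2, 26 were among the 104 genes called higher, which were 0.689% of all genes. Dusp8, a phosphatase of MAP kinases, stood at 6.52, 7.68 and 4.23 CPM in control and 15.9, 12.5 and 16.3 CPM in DIO (log2 fold change 1.45, SE 0.2, adjusted p = 0.0117 without control 2). Slc25a34, a carrier of the mitochondrial inner membrane, stood at 10.5, 13.9 and 12.3 CPM in control and 24.2, 23.1 and 20.1 CPM in DIO (log2 fold change 0.96, SE 0.16, adjusted p = 0.0209). Doc2b, a calcium sensor of vesicle release, stood at 5.32, 7.41 and 6.95 CPM in control and 9.42, 13.7 and 12.4 CPM in DIO (log2 fold change 0.92, SE 0.18, adjusted p = 0.0349). These 3 are no members of the immune lists, and control 2 was the highest control in each. Of immune genes, Alox5ap, which serves leukotriene synthesis and was among the 16 outside the lists, stood at 2.13, 3.96 and 2.57 CPM in control and 5.17, 4.95 and 4.62 CPM in DIO and Nkg7, a gene of cytotoxic granules, at 1.7, 3.18 and 1.61 CPM in control and 4.25, 3.28 and 3.95 CPM in DIO. Control 2 was the highest control for both.

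**Figure D4:**
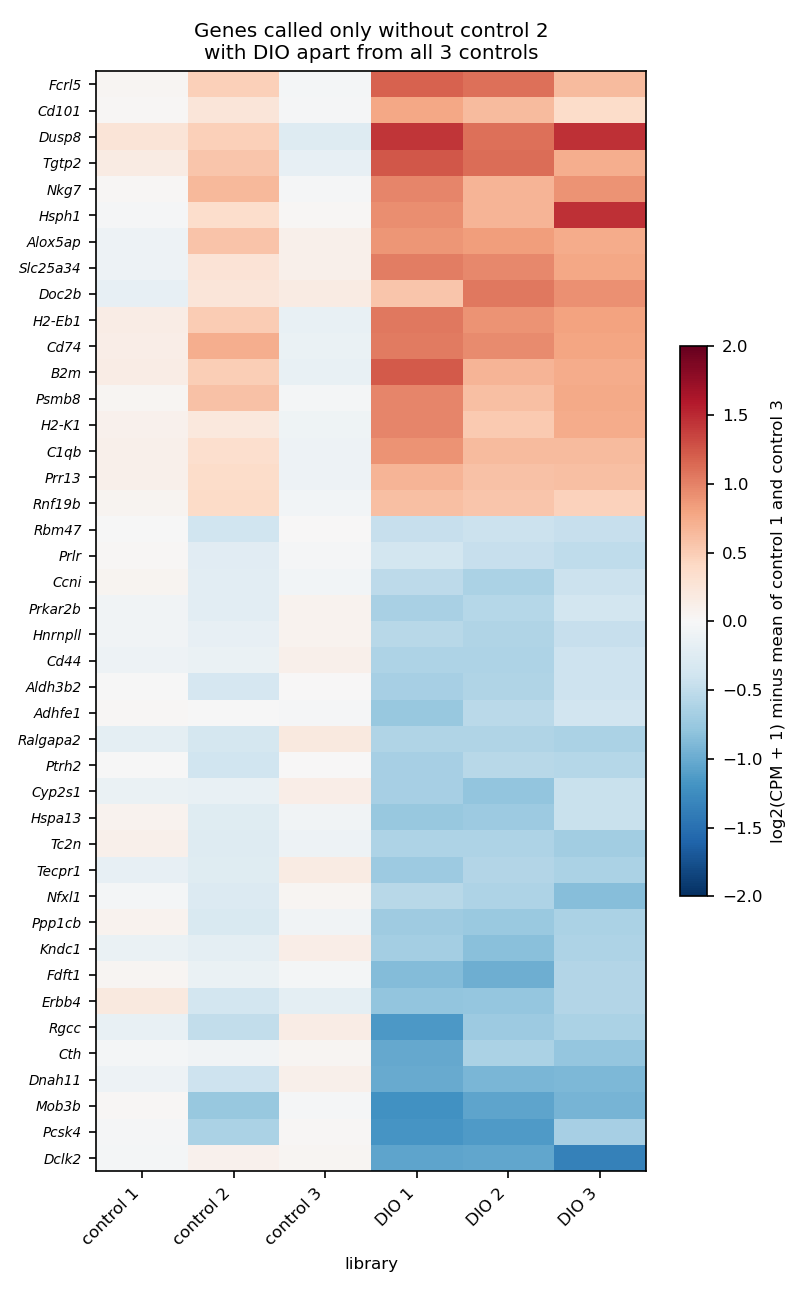
Log2(CPM + 1) of each of the 6 libraries minus the mean of control 1 and control 3 (colour scale from -2 to 2) for 42 of the 43 genes called only without control 2 whose DIO libraries lie apart from all 3 controls, ordered by fold change. By this choice of genes, control 2 lies beyond the DIO libraries on the side of the other controls in all 42 rows.

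The remaining 79 genes higher without control 2 were not separated from it. In 70 of them control 2 exceeded every DIO library, and in 9 it lay among them. Most of those named by size were leukocyte genes. Cd3d, a subunit of the T cell receptor complex, stood at 0.452, 4.98 and 0.168 CPM in control and 3.08, 2.78 and 1.37 CPM in DIO, and its log2 fold change was 0.36 with all libraries and 2.94 without control 2 (adjusted p = 0.030). Ccr7, the receptor that guides lymphocytes to lymph nodes, stood at 0.718, 10.6 and 0.361 CPM in control and 2.65, 2.75 and 1.83 CPM in DIO, with -0.7 and 2.14. In these genes control 1 and control 3 lay under DIO and control 2 above it, so the estimate depended on whether control 2 was kept.

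The same order was seen in the other genes of this kind. With all libraries and without control 2, the log2 fold changes were -0.93 and 4.42 for Fcmr, an IgM receptor, -0.08 and 2.88 for H2-DMb2, -0.26 and 2.71 for H2-Ob, both of class II antigen loading, 0.38 and 3.26 for Cd5, 0.34 and 2.8 for Cd3e, 0.62 and 2.26 for Cd2, and 0.01 and 2.15 for the adaptor Grap2. They were 0.8 and 3.04 for the protease inhibitor Serpina3f, 0.61 and 2.57 for Pstpip1, and 0.6 and 2.04 for Traf1. Control 1 and control 3 were low in all these genes, at 0.186 and 0 CPM for Fcmr and 0.293 and 0.12 CPM for Cd5. They were at 0.532 and 0.192 CPM for Cd3e and 0.266 and 0.241 CPM for Serpina3f. The sizes without control 2 thus rested on few control counts, and that of Fcmr ran from 3.39 to 9.29 over the alternative settings. The chemokine receptor Cxcr3 differed from these, at 0.692, 2.05 and 0.361 CPM in control and 3.67, 2.31 and 1.88 CPM in DIO, with only the lowest DIO value under control 2 (log2 fold change 2.3, SE 0.41, adjusted p = 0.0249 without control 2). Angptl4, an inhibitor of lipoprotein lipase and no leukocyte gene, stood at 0.0532, 2.57 and 0.0481 CPM in control and 1.87, 0.97 and 0.696 CPM in DIO, which places control 1 and control 3 under the floor of 3 counts and control 2 above DIO (adjusted p = 0.020 without control 2). Among 24 genes of fatty acid oxidation and PPAR targets it was the only one to pass in either fit of edgeR.

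Genes called by DESeq2 alone with all libraries added chemokine genes to the higher side. Cxcl9, which draws T cells, stood at 2.95, 2.86 and 0.625 CPM in control and 11.4, 7.42 and 4.72 CPM in DIO, and Cxcl10 at 1.28, 0.991 and 0.481 CPM in control and 3.71, 2.28 and 2.6 CPM in DIO (DESeq2 adjusted p = 0.00496 and 0.00262). Lag3, an inhibitory receptor of T cells, stood at 0.825, 0.924 and 0.216 CPM in control and 2.18, 2.38 and 1.88 CPM in DIO (DESeq2 adjusted p = 0.048). In edgeR's test without control 2 they reached adjusted p = 0.0629, 0.0643 and 0.0866. In all 3 control 3 was the lowest library. On the lower side DESeq2 called Cyp2e1, Lyve1, Melk, Spag5 and Xlr3a. Cyp2e1, a liver P450, stood at 1.2, 67.4 and 3.1 CPM in control and 0.461, 0.707 and 0.155 CPM in DIO, the lymphatic marker Lyve1 at 0.638, 5.63 and 0.842 CPM in control and 0.607, 0.21 and 0.284 CPM in DIO, and the mitotic genes Melk at 1.17, 5.07 and 1.06 CPM in control and 0.51, 0.393 and 0.232 CPM in DIO and Spag5 at 1.06, 5.52 and 1.3 CPM in control and 0.752, 0.393 and 0.438 CPM in DIO. Control 2 was by far the highest library in these 4. Without it their log2 fold changes went from -5.76, -2.68, -2.68 and -2.31 to -2.3, -1.02, -1.57 and -1.18, and DESeq2 no longer called them (adjusted p = 0.493, 0.566, 0.134 and 0.333). Xlr3a stood at 3.8, 3.49 and 1.92 CPM in control and 1.07, 0.76 and 0.258 CPM in DIO, with control 1 and control 2 alike (DESeq2 adjusted p = 0.00213, and 0.00284 without control 2, edgeR adjusted p = 0.0847 without control 2).

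Genes were next read by lists of pathways and cell types. Of 42 lists, 25 had no gene called by edgeR in either fit. Their members tested numbered 560 with all libraries and 567 without control 2, of which 85 and 95 had an unadjusted p under 0.05 and DESeq2 called 16 and 19. Over all genes, 1537 (10.3%) had an unadjusted p under 0.05 with all libraries and 2078 (13.8%) without control 2. Library totals in place of TMM moved the median of all genes by 0.09 with all libraries and by 0.15 without control 2, so list medians smaller than this depended on the scaling.

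Genes of cholesterol synthesis and uptake were lower in DIO in 23 of 24 tested, with a median log2 fold change of -0.53 (-0.45 without control 2), where the median of all genes was 0.01 and -9.8e-05. In 14 of the 24 every DIO library was below every control (7.38% of all genes). Cells make cholesterol from acetyl-CoA through mevalonate, isoprenoid and squalene steps, and the transcription factor SREBP2 drives most of these genes. Among the enzymes of the isoprenoid steps, Idi1, the isopentenyl diphosphate isomerase, stood at 9.18, 12.3 and 7.26 CPM in control and 3.62, 2.8 and 3.82 CPM in DIO, and Fdps at 59.2, 65.2 and 47.9 CPM in control and 34.1, 37.5 and 40.3 CPM in DIO. Fdft1, the squalene synthase, which makes the first dedicated sterol precursor, stood at 41.7, 37.1 and 39.8 CPM in control and 21.8, 20.2 and 26.9 CPM in DIO and passed without control 2 (log2 fold change -0.85, SE 0.18, adjusted p = 0.0494). The next enzyme, Sqle, stood at 20.3, 22.5 and 16.5 CPM in control and 11, 9.93 and 10.2 CPM in DIO. Of the later enzymes, Cyp51 stood at 28.9, 45.2 and 23.3 CPM in control and 14.5, 12.9 and 12.5 CPM in DIO, Msmo1 at 26.5, 30.7 and 22.2 CPM in control and 14.3, 13.1 and 13.6 CPM in DIO and Hsd17b7 at 4.1, 5.16 and 3.58 CPM in control and 1.89, 1.68 and 1.7 CPM in DIO. In all these genes the highest DIO library lay below the lowest control.

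Fdft1 was the only gene of the list that passed in edgeR's test, in the fit without control 2 (with all libraries 0 of 24 passed, and 13 had an unadjusted p under 0.05), and DESeq2 called 8, all lower (0.778% of all genes). Insig1, which holds SREBP2 in the ER, stood at 229, 172 and 216 CPM in control and 119, 115 and 211 CPM in DIO, where DIO 3 was close to the controls while DIO 1 and DIO 2 were lower. Srebf2, which encodes SREBP2, stood at 63.7, 65.4 and 67.4 CPM in control and 50.6, 49.4 and 54.6 CPM in DIO. Ebp, at 33.7, 35.1 and 36.3 CPM in control and 36.2, 38.1 and 44.3 CPM in DIO, was the 1 member that was higher.

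Promoter sequences are shown for Idi1 and Hsd17b7, enzymes whose DIO libraries were far below the controls, because members of this list moved together. Capitals mark the CCAAT box (CCAAT or its reverse complement ATTGG). Each is the 250 bases before the start of the gene on its own strand, from RefSeq on build GRCm38.p6 (Idi1 at chr13:8885356-8885605, + strand, and Hsd17b7 at chr1:169969206-169969455, - strand).
Idi1: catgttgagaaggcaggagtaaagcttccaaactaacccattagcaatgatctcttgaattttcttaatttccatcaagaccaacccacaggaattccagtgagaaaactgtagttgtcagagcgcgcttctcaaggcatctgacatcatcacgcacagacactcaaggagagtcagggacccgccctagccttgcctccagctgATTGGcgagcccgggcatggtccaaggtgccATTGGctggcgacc
Hsd17b7: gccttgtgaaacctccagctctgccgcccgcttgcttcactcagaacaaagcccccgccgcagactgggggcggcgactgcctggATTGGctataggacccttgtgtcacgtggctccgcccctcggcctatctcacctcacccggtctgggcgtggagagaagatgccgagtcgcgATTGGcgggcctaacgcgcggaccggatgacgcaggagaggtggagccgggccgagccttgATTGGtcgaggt
Idi1 holds 2 matches and Hsd17b7 holds 3. Of the 17 list members with a window in the table, 16 (94.1%) held a match on either strand, as did 37.5% of all 27025 genes with a window. TCACNCCAC, a form of the sterol element, was in 1 of the 17 (5.9%) and in 1.2% of all. A match is a description of these letters and no measure of binding.

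Heat shock chaperone genes were higher in 17 of 24, with a median of 0.18 (0.21 without control 2), and in 9 every DIO library was above every control (8.94% of all genes), against 1 below. Chaperones of the HSP70 and HSP90 systems fold and refold cytosolic proteins, and many are induced by the factor HSF1. Beside Hspa8, Hsph1, an HSP110 nucleotide exchange factor for HSP70, stood at 22.9, 30 and 23.8 CPM in control and 45.6, 38.2 and 65.9 CPM in DIO and passed without control 2 (log2 fold change 1.07, SE 0.18, adjusted p = 0.0205). The inducible HSP70 gene Hspa1b stood at 19.5, 17.3 and 18.9 CPM in control and 30.7, 23 and 52.5 CPM in DIO, its near copy Hspa1a at 5.8, 5.81 and 6.98 CPM in control and 9.15, 8.04 and 16.3 CPM in DIO, and reads of these 2 may have been divided between them. Hsp90ab1, the constitutive HSP90, stood at 611, 624 and 625 CPM in control and 799.6, 761 and 959 CPM in DIO, and the cochaperone Stip1 at 49.7, 53 and 52 CPM in control and 66.2, 61.8 and 85.1 CPM in DIO. DIO 3 was the highest library in each of these 5 genes. DESeq2 called 5 of the 24, all higher (0.523% of all genes). The mitochondrial chaperones did not share the direction, with Hspd1 at 129, 126 and 133 CPM in control and 126, 124 and 133 CPM in DIO and Hspa9 at 243, 224 and 283 CPM in control and 201, 220.3 and 219.8 CPM in DIO. Hspa13, an ER-associated HSP70 outside this list, was lower (log2 fold change -0.67, SE 0.13, adjusted p = 0.030 without control 2, chosen after its values were seen).

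Promoters of Hsph1 and Hspa1b are shown with paired heat shock units in capitals, the arrangement GAANNTTC or TTCNNGAA that HSF1 binds in repeats (250 bases before the start, RefSeq, GRCm38.p6, Hsph1 at chr5:149636337-149636586 and Hspa1b at chr17:34959239-34959488, both on the - strand).
Hsph1: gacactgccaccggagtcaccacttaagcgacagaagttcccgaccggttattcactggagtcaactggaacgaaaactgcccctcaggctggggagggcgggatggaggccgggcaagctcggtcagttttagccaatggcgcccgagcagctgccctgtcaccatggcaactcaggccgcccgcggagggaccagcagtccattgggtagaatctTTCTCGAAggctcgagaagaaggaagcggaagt
Hspa1b: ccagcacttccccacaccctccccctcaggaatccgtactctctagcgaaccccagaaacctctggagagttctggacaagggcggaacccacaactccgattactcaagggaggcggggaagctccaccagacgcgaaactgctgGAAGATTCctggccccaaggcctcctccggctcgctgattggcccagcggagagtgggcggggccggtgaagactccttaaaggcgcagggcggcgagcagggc
Both arrangements read the same on either strand, and they can overlap. Of 18 list members with a window, 7 held GAANNTTC (38.9%, against 7.7% of all genes) and 4 held TTCNNGAA (22.2%, against 8.1%), and the mitochondrial genes Hspd1 and Hspe1, whose groups overlapped, held both.

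Interferon response genes were higher in 33 of 33 with all libraries (median 0.48) and in 30 of 33 without control 2 (0.49). In 17 every DIO library was above every control (8.94% of all genes). Igtp was the only 1 called with all libraries (0.0536% of all genes were called higher), and 3 were called without control 2 (0.689%). Of these, Tgtp2, a GTPase with a near-identical neighbour in the genome, stood at 2.5, 3.63 and 1.8 CPM in control and 6.38, 5.76 and 4.2 CPM in DIO and Ifi47 at 3.8, 7.46 and 2.53 CPM in control and 11.4, 7.57 and 6.11 CPM in DIO, with control 2 inside the DIO range for the second. Gbp2, a guanylate-binding protein induced by interferon gamma, stood at 10.4, 10.1 and 6.54 CPM in control and 23.4, 16.7 and 14.1 CPM in DIO, and Ifi27l2a at 106, 94.9 and 124 CPM in control and 245, 199 and 229 CPM in DIO. Neither passed in edgeR's test (adjusted p = 0.167 and 0.116 with all libraries, 0.051 and 0.0634 without control 2), and DESeq2 called both. DIO 1 was the highest library in Igtp, Tgtp2, Ifi47, Gbp2 and Ifi27l2a.

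Promoters of Igtp and Gbp2 are shown with the core of the interferon-stimulated response element, on either strand, in capitals (250 bases before the start, RefSeq, GRCm38.p6, Igtp at chr11:58199306-58199555 and Gbp2 at chr3:142620413-142620662, both on the + strand).
Igtp: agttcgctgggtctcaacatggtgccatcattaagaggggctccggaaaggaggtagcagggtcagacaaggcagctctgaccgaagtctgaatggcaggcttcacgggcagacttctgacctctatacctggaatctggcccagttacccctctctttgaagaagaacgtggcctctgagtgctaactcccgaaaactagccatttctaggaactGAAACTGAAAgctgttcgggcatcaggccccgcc
Gbp2: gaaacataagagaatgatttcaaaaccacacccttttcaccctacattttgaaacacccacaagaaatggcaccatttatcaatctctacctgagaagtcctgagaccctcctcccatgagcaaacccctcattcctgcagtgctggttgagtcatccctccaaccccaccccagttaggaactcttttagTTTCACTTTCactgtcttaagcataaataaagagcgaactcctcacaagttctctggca
It was in 17 of 26 interferon response genes with a window (65.4%) and in 3.5% of all genes. The STAT arrangement TTCNNNGAA was in 10 of the 26 (38.5%) and in 8.1% of all.

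Antigen presentation genes were higher in all 23 tested in both fits, with a median of 0.49 that became 0.78 without control 2. None passed in edgeR's test with all libraries (13 had an unadjusted p under 0.05, and DESeq2 called 5), and 10 passed without control 2, where 0.689% of all genes did so on that side. The summed level was 1977, 2432 and 1765 CPM in the controls and 3434, 2795 and 2901 CPM in DIO. Of class I, which shows peptides from inside the cell, H2-K1 stood at 477, 520.4 and 425 CPM in control and 884, 645 and 753 CPM in DIO (log2 fold change 0.73, SE 0.14, adjusted p = 0.0349 without control 2), H2-D1 at 419.6, 449 and 413 CPM in control and 668, 519.8 and 606 CPM in DIO and the light chain B2m at 177, 225 and 144 CPM in control and 375, 257 and 267 CPM in DIO (log2 fold change 0.88, SE 0.17, adjusted p = 0.030). Every DIO library exceeded every control in these 3, with DIO 1 the highest. Of class II, which is made by B cells, dendritic cells and macrophages, H2-Eb1 stood at 94.7, 122 and 77.4 CPM in control and 179, 161 and 150.5 CPM in DIO (log2 fold change 0.9, SE 0.13, adjusted p = 0.0153), Cd74 at 249, 376 and 206 CPM in control and 465, 434 and 391 CPM in DIO (log2 fold change 0.9, SE 0.15, adjusted p = 0.0205) and H2-Aa at 99.7, 154 and 86.8 CPM in control and 189.7, 174 and 151 CPM in DIO (log2 fold change 0.86, SE 0.14, adjusted p = 0.0205). For H2-Aa control 2 lay above the lowest DIO library. H2-DMa, which loads class II molecules, stood at 5.51, 11.8 and 5.87 CPM in control and 11.2, 10.9 and 9.49 CPM in DIO, with control 2 above all DIO libraries. Genes of this family share sequence, and reads may have been divided between H2 genes.

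Lists of leukocytes moved with the choice of controls. With all libraries, edgeR's test called 0 of the macrophage, T cell and B cell genes (9, 2 and 2 had an unadjusted p under 0.05), and DESeq2 called 3, 0 and 1. The 3 macrophage genes were higher in DIO and the 1 B cell gene was lower. Without control 2, 0.689% of all genes passed in edgeR's test on the higher side. Genes of macrophages and dendritic cells had a median of 0.39 (23 of 29 higher) and of 0.64 without control 2 (27 of 29), where 2 passed. Of these, C1qb, a complement subunit made by macrophages, stood at 25.5, 30.2 and 22.1 CPM in control and 45.1, 37.5 and 37.3 CPM in DIO, apart from all controls, and Irf8, a factor of dendritic cells, stood at 11.3, 26.2 and 11.2 CPM in control and 18.6, 19.5 and 16.6 CPM in DIO, with control 2 the highest. T and NK cell genes had a median of 0.34 with all libraries (17 of 25 higher) and 1.93 without control 2 (25 of 25, 8 passing), and their summed level was 27.6, 142.6 and 15 CPM in the controls and 81.4, 69.9 and 49.5 CPM in DIO. Examples beside Cd3d and Cd2 are Ccl5, a chemokine of T cells, at 3.59, 10.2 and 1.64 CPM in control and 7.84, 6.73 and 7.32 CPM in DIO, and Cd6 at 0.479, 4.05 and 0.0962 CPM in control and 2.23, 2.04 and 1.7 CPM in DIO. B cell and lymph node genes had a median of -0.54 with all libraries (3 of 19 higher) and 2.35 without control 2 (17 of 19, 3 passing), with the lymphotoxin gene Ltb at 2.61, 12.9 and 1.18 CPM in control and 7.04, 7.78 and 4.51 CPM in DIO. Cd22, another B cell gene, did not pass in either fit, at 1.44, 21.8 and 0.192 CPM in control and 5.29, 7.81 and 3.17 CPM in DIO. The part that lymphoid tissue in a library had in these results was not tested. Outside these lists, inflammatory cytokine and NF-kB genes had medians of -0.06 and 0.16, and 0 passed in edgeR's test or DESeq2 with all libraries or in edgeR's test without control 2 (1 and 5 had an unadjusted p under 0.05), and DESeq2 called 2 without control 2. Its members with the smallest p were Lcn2, at 2.13, 19.2 and 1.44 CPM in control and 2.04, 2.04 and 2.19 CPM in DIO, and Ccl3, at 0.372, 0.541 and 1.73 CPM in control and 0.194, 0.393 and 0.232 CPM in DIO, each high in 1 control.

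In the IgA path of saliva, receptor and chemokine had opposite signs, and neither passed in edgeR's test. Pigr, the receptor that carries IgA into saliva, stood at 307, 490.0 and 313 CPM in control and 200.1, 219.9 and 203 CPM in DIO, lower in every DIO library (adjusted p = 0.212, 0.128 without control 2, DESeq2 0.00167 and 0.0095). Ccl28, which draws IgA plasma cells to glands, stood at 291, 358 and 272 CPM in control and 377, 434 and 426 CPM in DIO, higher in every DIO library (adjusted p = 0.322, 0.0978 without control 2, DESeq2 0.0955 and 0.00321). Jchain, the joining chain of IgA, overlapped between groups, at 105, 155 and 48.2 CPM in control and 231, 155 and 120.1 CPM in DIO.

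The secretory products that fill these libraries showed no call. The 10 genes with the most counts in control were Gm53236, Mucl2, Prol1, Scgb1b27, Car6, Scgb2b27, Klk1, Scgb2b26, Pip and the mitochondrial COX1, and their adjusted p ranged from 0.38 to 0.893 in edgeR's test. Mucl2, a mucin-like protein, was the only one of them whose DIO libraries were apart from the controls, at 80955, 94319 and 79794 CPM in control and 44952, 62023 and 76261 CPM in DIO (log2 fold change -0.48, SE 0.18, adjusted p = 0.38). Prol1, a proline-rich secreted protein, overlapped, at 89948, 72691 and 88198 CPM in control and 68155, 92330.0 and 54865 CPM in DIO, as did the anhydrase Car6, at 57362, 48824 and 63446 CPM in control and 39901, 48189.7 and 55062 CPM in DIO, and Pip, at 22619.9, 16721 and 19983 CPM in control and 15286, 14626 and 18981 CPM in DIO. Gm53236 stood at 118052, 64359 and 102638 CPM in control and 67316, 62761 and 98815 CPM in DIO, where control 2 lay with DIO and below the other controls. The androgen-binding protein genes Scgb1b27, Scgb2b27 and Scgb2b26 had log2 fold changes of 0.15, 0.12 and 0.28, and 0.00, -0.03 and 0.11 without control 2. Klk1 changed its sign with control 2, from 0.11 to -0.03.

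Granular duct growth factors and kallikreins were higher in 19 of 22 with all libraries, and their median of 0.45 became 0.25 without control 2 (16 of 22 higher). Esp8 was the only one to pass in edgeR's test, in both fits, and DESeq2 called it and Klk1b5, at 675, 392 and 511 CPM in control and 842, 696 and 986 CPM in DIO. Egf stood at 1079, 605 and 738 CPM in control and 1174, 887 and 1107 CPM in DIO, with control 2 the lowest library and control 1 within the range of DIO. Reads of the near-identical Klk1b genes may have been divided between them. Submandibular and sublingual acinar proteins were lower in 12 of 20 (medians -0.19 and -0.09, the second 0.06 with library totals), and 0 passed in edgeR's test or by DESeq2. Prb1 and Bpifa2 had the smallest p of that list, at 5.99, 20.4 and 1.88 CPM in control and 0.631, 0.0262 and 0.284 CPM in DIO and 5209, 24442 and 1951 CPM in control and 2321, 1651 and 1399 CPM in DIO, and both followed the parotid pattern. Of the parotid list 5 of 7 were lower, and 6 of 7 without control 2 (medians -0.29 and -0.37). Prpmp5 stood at 6.25, 34.2 and 2.86 CPM in control and 0.534, 0.0262 and 0.335 CPM in DIO and Dnase1 at 244, 1134 and 72.2 CPM in control and 44.9, 6.6 and 21.9 CPM in DIO, with every DIO library below every control, and neither passed (adjusted p = 0.257 and 0.35, 0.195 and 0.335 without control 2). Smr3a, listed as a submandibular gene, ran with them, at 1458, 7336 and 395 CPM in control and 106, 1.02 and 68.4 CPM in DIO. Control 1 held more of these genes than control 3 and DIO, so leaving out control 2 did not remove that signal. The part of parotid tissue in a library was not tested.

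Genes of the secretory machinery differed little from the median of all genes. Of 30 genes of ER folding and the unfolded protein response, 20 were lower with all libraries (median -0.06) and 25 without control 2 (-0.12), but the medians were 0.04 and 0.02 with library totals, and 0 passed in edgeR's test. DESeq2 called 2, both lower. Creb3l1, a membrane-bound factor that drives secretory genes, stood at 464, 441 and 514 CPM in control and 329, 349 and 329 CPM in DIO, and Eif2ak3, the ER stress kinase PERK, at 144, 152 and 157 CPM in control and 120.0, 122 and 119.6 CPM in DIO. In both every DIO library lay below every control. Of 36 Golgi genes 18 were lower with all libraries and 24 without control 2 (medians -0.01 and -0.05, and 0.08 and 0.11 with library totals).

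Ducts, fluid secretion and the myoepithelium gave 0 calls in edgeR's test in either fit and 0 by DESeq2 with all libraries. Duct and ionocyte genes had medians of 0.04 and -0.06, with Foxi1, the ionocyte factor, at 14.6, 14.7 and 18.1 CPM in control and 26.1, 20.4 and 22.5 CPM in DIO, and the epithelial factor Elf5 at 105, 98.6 and 111 CPM in control and 112, 125 and 137 CPM in DIO. Fluid secretion and calcium genes had medians of -0.02 and -0.06. Within them the muscarinic receptor Chrm3, through which nerves start secretion, stood at 35.8, 39.3 and 40.4 CPM in control and 47.7, 47.1 and 45.9 CPM in DIO (adjusted p = 0.257), and the adrenergic receptor Adra1a at 60.5, 42.8 and 64.6 CPM in control and 71.6, 66.9 and 72 CPM in DIO. Every DIO library exceeded every control in these 4 genes, which were taken for the smallest p of their lists. Over the whole lists this held for 3 of 22 duct and ionocyte genes and 4 of 24 fluid secretion genes (8.94% of all genes). Myoepithelial and basal genes, which mark the contractile cells around acini, were lower in 11 of 13 in both fits (medians -0.15 and -0.18), with the smooth muscle actin Acta2 at 184, 170.1 and 156 CPM in control and 149, 111 and 149.6 CPM in DIO and the basal factor Trp63, which was higher, at 10.7, 9.71 and 9.48 CPM in control and 14, 11.7 and 12 CPM in DIO. Of the 13, 1 had an unadjusted p under 0.05 in edgeR's test with all libraries and 0 without control 2. By library, the list's median log2 level, each gene taken relative to its mean over the 6 libraries, was 0.17, 0.07 and 0.01 in control. It was 0.04, -0.27 and 0.02 in DIO, so only DIO 2 lay below all controls.

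Among lipid and hormone genes outside the cholesterol list, those of fatty acid and triglyceride synthesis had medians of -0.18 (19 of 25 lower) and -0.07 (17 of 25, median 0.08 with library totals), with 0 passing in edgeR's test and 4 by DESeq2. Acss2, which makes acetyl-CoA from acetate, stood at 40.4, 39.4 and 38 CPM in control and 29.9, 27.1 and 31.6 CPM in DIO, and the citrate carrier Slc25a1 at 31.8, 39.7 and 30.8 CPM in control and 24.1, 22.6 and 25.8 CPM in DIO, apart in all libraries (adjusted p = 0.128 and 0.239, 0.0669 and 0.191 without control 2). Fatty acid oxidation genes had medians of -0.01 and 0.02. Lipases and carboxylesterases had medians of -0.10 and 0.10, with Ces1d the only 1 of 13 to pass. Of 27 insulin and metabolic hormone genes 13 were higher and 14 lower (median -0.02), and 0 passed in edgeR's test. Irs2, the adaptor of the insulin receptor, stood at 13.7, 14.2 and 16.2 CPM in control and 31, 17.1 and 38.1 CPM in DIO, with DIO 2 just above the controls and DIO 1 and DIO 3 well above them. Socs2, an inhibitor of growth hormone signalling, stood at 47, 43.3 and 42.4 CPM in control and 31.6, 35.3 and 26.2 CPM in DIO, and DESeq2 called both (adjusted p = 0.00739 and 0.0183).

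Nuclear genes of the mitochondrial respiratory chain had medians of 0.06 and -0.04 and 0 calls by either tool with all libraries, and 0 of 35 had DIO apart from the controls. Cycs, cytochrome c, stood at 45, 42.3 and 47.9 CPM in control and 45.8, 49.6 and 61 CPM in DIO and Cox5a at 66.3, 60.4 and 64 CPM in control and 67.3, 63.8 and 84.2 CPM in DIO, both highest in DIO 3. Of the mitochondrially encoded genes, a list added after values were seen, 10 of 12 were lower (median -0.22, and -0.27 over 13 without control 2) and 0 passed. COX1 stood at 10859.7, 10677 and 11231 CPM in control and 10058, 9652 and 11711 CPM in DIO. Cytosolic ribosomal protein genes were higher in 43 of 44 with all libraries and 42 without control 2 (medians 0.15 and 0.12), with 0 calls in either fit of edgeR or by DESeq2 with all libraries. Rpl5 stood at 488, 491 and 487 CPM in control and 517, 554 and 617 CPM in DIO and Rps9 at 298, 328 and 306 CPM in control and 330.4, 347 and 389.8 CPM in DIO. In 10 of the 44 every DIO library exceeded every control (8.94% of all genes), and DIO 3 was the highest in both named. By library, the list's median log2 level, each gene taken relative to its mean over the 6 libraries, was -0.10, -0.07 and -0.04 in control. It was -0.07, 0.02 and 0.26 in DIO, so DIO 1 lay within the controls and DIO 3 stood highest. Over the alternative settings the median log2 fold change of the list went down to 0.04. With library totals the medians of this list were 0.23 and 0.26, beside medians of all genes of 0.10 and 0.15.

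Among transcription and stress lists, Zbtb16 was the only one of 20 glucocorticoid-induced genes to pass (10 higher and 10 lower, medians 0.01 and 0.12). Fkbp5, a cochaperone of the glucocorticoid receptor, was called by DESeq2 and stood at 49.7, 50.6 and 69.3 CPM in control and 92.2, 88.5 and 131 CPM in DIO (DESeq2 adjusted p = 1.24e-04). Immediate early genes had medians of 0.24 and 0.17. Jund stood at 72.3, 85.3 and 79.4 CPM in control and 112, 91.7 and 152 CPM in DIO and Nr4a2 at 11.8, 13.3 and 9.77 CPM in control and 22.6, 12 and 21.6 CPM in DIO. Dusp1 reached 54.9 CPM in DIO 3 and at most 16.1 CPM in the others. Fos and Egr1 were highest in control 3, at 13.7 and 53.2 CPM, against at most 3.02 and 16.7 CPM elsewhere, so these responses to acute stimuli differed between single libraries of a group. Hypoxia response genes had medians of 0.08 and 0.16, with P4ha1, a collagen prolyl hydroxylase, at 8.3, 10.1 and 8.39 CPM in control and 14.1, 12.7 and 15.7 CPM in DIO, and Pdk1, a kinase that holds back pyruvate oxidation, at 55.9, 67.5 and 57.8 CPM in control and 49.5, 43.9 and 47.6 CPM in DIO. Oxidative stress genes had medians of -0.02 and 0.00, with Txnrd1, the thioredoxin reductase, at 44.4, 47 and 47.7 CPM in control and 61.8, 58.7 and 61.9 CPM in DIO, and Gsta4 at 11.8, 12.1 and 14.1 CPM in control and 15, 17 and 16 CPM in DIO. None of the immediate early, hypoxia and oxidative stress genes passed in either fit, and DESeq2 with all libraries called 1, 2 and 1 of them.

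Other tissues and structures were measured from the same libraries. Cell cycle genes were lower in 31 of 32 with all libraries (median -1.54) and in 17 of 32 without control 2 (-0.16). Cdc20, an activator of mitotic exit, stood at 3.64, 19.5 and 2.55 CPM in control and 1.65, 1.18 and 1.47 CPM in DIO, and Ube2c at 2.45, 14.8 and 1.66 CPM in control and 1.21, 1.18 and 0.774 CPM in DIO, below all controls in DIO also without control 2, and neither passed (adjusted p = 0.207 and 0.305 without control 2). Adipocyte genes had medians of -0.57 and 0.09, with Cfd, adipsin, at 1.78, 43.7 and 10.9 CPM in control and 1.6, 1.28 and 0.645 CPM in DIO and Car3 at 3.35, 60.9 and 9.33 CPM in control and 6.82, 4.82 and 0.542 CPM in DIO. Red blood cell genes had a median of 0.79 over 8 genes, all of them higher, and of 0.77 over 9 without control 2. The haemoglobin gene Hbb-bt stood at 3.33, 4.78 and 6.95 CPM in control and 14.4, 8.1 and 6.32 CPM in DIO, highest in DIO 1. Nerve and glia genes had medians of 0.12 and 0.09, with Uchl1 at 1.76, 1.94 and 2.12 CPM in control and 2.35, 3.01 and 3.15 CPM in DIO. Fibroblast and collagen genes had medians of -0.04 and -0.02, with the proteoglycan Bgn at 59.5, 68.2 and 56.7 CPM in control and 90.8, 73.6 and 72.2 CPM in DIO and Col3a1 at 39.5, 52.1 and 45.6 CPM in control and 43.9, 29 and 28.5 CPM in DIO. Skeletal muscle genes had medians of -0.22 over 6 genes and -0.50 over 10 without control 2, with Ttn and Acta1 at most 0.766 and 0.625 CPM. None of the genes of these 6 lists passed in edgeR's test in either fit, and DESeq2 with all libraries called 1.

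Signalling and membrane lists stayed near the median of all genes. Potassium channels had medians of 0.09 and 0.06, with Kcnj15 at 18.9, 17.4 and 22.1 CPM in control and 28.2, 23.5 and 27.5 CPM in DIO and Kcnk1 at 67.5, 65.2 and 71.7 CPM in control and 76.2, 76.4 and 89.8 CPM in DIO. Tight junction genes had medians of 0.00 and -0.03, with Jam3 at 3.8, 5.83 and 3.75 CPM in control and 2.62, 2.54 and 2.55 CPM in DIO and Cldn1 at 11.4, 11.9 and 9.91 CPM in control and 14.9, 15.2 and 12.8 CPM in DIO. Wnt and Notch genes had medians of -0.07 and 0.09, with Fzd5 at 17.7, 14.3 and 17.4 CPM in control and 22.6, 23.2 and 21.8 CPM in DIO and Jag1 at 10.7, 9.8 and 8.63 CPM in control and 14.3, 12.1 and 11.2 CPM in DIO. Apoptosis and autophagy genes had medians of 0.04 and 0.07, with the survival gene Bcl2l1 at 31, 29.5 and 36.1 CPM in control and 39.7, 41.6 and 48.1 CPM in DIO and Tfeb, which drives lysosome genes, at 19.3, 18.3 and 21.9 CPM in control and 24.8, 24.1 and 24.2 CPM in DIO. These 8 genes were taken for the smallest p of their lists, and in each the DIO libraries lay apart from the controls. Over the whole lists, DIO lay above all controls in 3 of 20, 3 of 20, 2 of 31 and 4 of 31 genes. It lay below them in 0, 3, 0 and 1 (16.3% of all genes lay apart either way). None of the 8 passed in edgeR's test (adjusted p of 0.205 to 0.403 with all libraries). DESeq2 called Jam3 and Bcl2l1. Among the 200 genes with the most counts, the smallest p on the lower side belonged, beside Creb3l1 and Bpifa2, to Pabpc1, which binds poly(A) tails, at 1872, 1618 and 1987 CPM in control and 1154, 1328 and 1423 CPM in DIO, Nupr1, a stress-induced gene, at 452, 1045 and 495 CPM in control and 382, 329 and 313 CPM in DIO, and Ppp1r1b, at 486, 394 and 582 CPM in control and 278, 326 and 387 CPM in DIO. On the higher side Gpr155 followed Hspa8, H2-K1, H2-D1 and Hsp90ab1, at 858, 735 and 736 CPM in control and 1107, 1117 and 969 CPM in DIO.

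**Figure D5:**
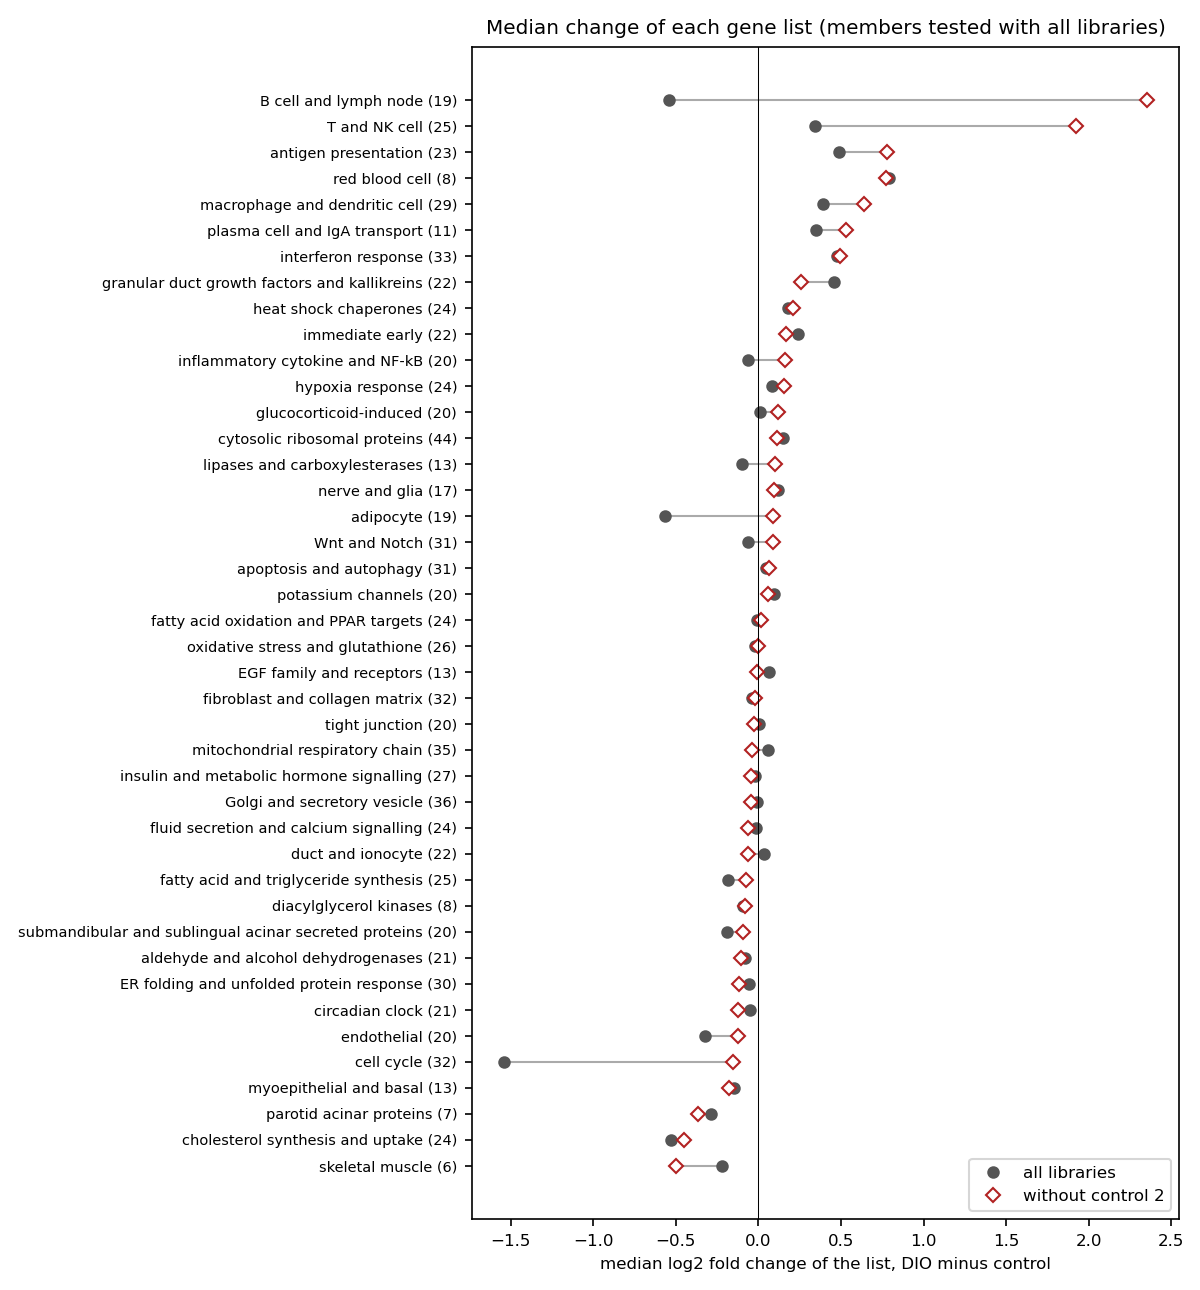
Median log2 fold change of DIO minus control for each of 42 gene lists, with all libraries (grey points) and without control 2 (open diamonds), ordered by the second; the number of members tested with all libraries stands in brackets. B cell, T cell, cell cycle and adipocyte lists move most with control 2, whereas cholesterol, heat shock, interferon and ribosomal lists keep their place.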

How the data were processed

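RNA of 9 gland libraries was measured by polyA RNA-seq. The authors deposited whole-number counts and FPKM per gene, and HISAT2, Salmon and the build GRCm39 are named per the submitters' processing notes. RNA was extracted with TRIzol, per the labels' protocols. The strand setting, annotation and handling of multiply matching reads were not given in the sources used here. Deposited FPKM values were used only to check that they follow from the counts.

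Counts were filtered with filterByExpr, scaled by TMM and fitted with edgeR 4.0.16 (R 4.3.3, quasi-likelihood F test, Benjamini-Hochberg adjustment over all genes tested, threshold 0.05). A single fit held 9 libraries in 3 groups, with the spread shared, and was repeated on 8 without control 2. DESeq2 1.42.0, other scalings and filters, the replicate block and leaving out each library were alternatives. The scripts were tested on simulated data. SE is the log2 fold change divided by the square root of F.

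Members and lists were chosen with earlier results of these data known, and the liver, parotid pattern and mitochondrial lists were added after values were seen. Genes named are those called with all libraries, the 15 largest changes each way called without control 2 and the 8 each way called by DESeq2 (at least 2 CPM, no overlap of groups), up to 4 called genes of each list or else its 2 with the smallest p, the 10 with the most counts, the 5 smallest p each way among the 200 with the most counts, and those highest in control 2. Other genes named, such as further members of the cholesterol, heat shock and immediate early lists, were chosen after their values were seen. For some genes that this rule names, results are not reported here. Promoter windows came from RefSeq (GRCm38.p6) and 100 of the 140 called genes had one. No coordinates were converted between builds.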

Additional observations from a re-analysis of the deposited data

How the results depend on the processing

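The number of genes called with all libraries (14) became 194 with DESeq2, 22 with library totals, 37 with no filter on low counts, 4 with only control and DIO libraries and 0 to 140 when a library was left out. The 140 called without control 2 became 492, 283, 799 and 332 under the same settings and 3 to 345 when a further library was left out, where a group with 2 libraries borrows the spread of the others. Groups share replicate numbers. The deviations of same-numbered libraries correlated at -0.0934, 0.113 and 0.307, and those of the other pairs of a control and a DIO library at -0.315 to 0.246. With so few libraries these values cannot tell whether the numbers pair them. With the replicate block, 18 and 400 genes passed, and the log2 fold changes with all libraries changed sign for Ccr7 (0.22), Cd22 (0.49), Fcmr (1.0), H2-DMb2 (0.82) and H2-Ob (0.75). COX1 changed sign with library totals (0.0283), as did Grap2 with DESeq2 (-0.00093) and with its size factors (-0.00515). When a library was left out, the log2 fold changes with all libraries spanned 0 for Angptl4 (-0.16 to 4.44), Ccr7 (-1.24 to 2.14), Cd22 (-1.1 to 2.73), Cd3d (-0.18 to 2.94), Cd3e (-0.23 to 2.8), Cd5 (-0.17 to 3.26), Cd6 (-0.19 to 2.78), Fcmr (-1.51 to 4.42), Fgg (-2.26 to 1.58), Grap2 (-0.49 to 2.15), H2-DMb2 (-0.63 to 2.88), H2-Ob (-0.82 to 2.71), Irf8 (-0.0434 to 0.67), Klk1 (-0.0347 to 0.23), Lcn2 (-2.35 to 0.21), Ltb (-0.27 to 1.75), Scgb2b27 (-0.0349 to 0.205), Trf (-3.39 to 0.0613) and Ttn (-1.13 to 0.46). The cause was not tested.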
